A study of Homo sapiens with 30 samples.

Results

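ANKRD1 and 8 other genes that belong to the transcriptional programme of YAP were followed through 8 RNA libraries. The cells were HEK293FT, a line derived from human embryonic kidney. The 9 genes, out of 27630 in the count tables, were ANKRD1, CTGF (now CCN2), CYR61 (now CCN1), AXL, AMOTL1, AMOTL2, AJUBA, LATS2 and TEAD1. ANKRD1 was chosen because its counts in these libraries were higher at the nuclear lamina than in either cell fraction, so its lamina against fraction values are given as a description with no test. The other 8 were chosen by what they are known to do, with earlier results of these data known. All 9 passed the filter on low counts, which kept 16504 genes for testing.

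The libraries fell into 4 groups of 2. A nuclear fraction and a cytosolic fraction came from biochemical separation of the cells. The other groups were a native and a paraformaldehyde (PFA) version of RNA recovered by APEX2 proximity labelling, in which a peroxidase fused to lamin B1 tags molecules near the nuclear lamina, the protein sheet under the nuclear envelope. Per the labels, all 8 libraries came from asynchronous HEK293FT cells transfected with the APEX2 lamin B1 construct by Lipofectamine 2000, so the fractions carried it too and no untransfected library was analysed here. RNA was extracted with Trizol and depleted of ribosomal RNA. The labels do not say that replicates came from separate cultures, so each p-value measures the spread between these libraries, which may be technical. In bulk RNA, fewer cells that express a gene and less RNA per cell cannot be told apart.

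YAP and its relative TAZ are coactivators that bind DNA through the TEAD transcription factors. When the kinases MST and LATS of the Hippo pathway are active, as in dense or rounded cells, YAP is phosphorylated and kept in the cytoplasm. When cells spread or meet a stiff surface, YAP enters the nucleus and genes such as ANKRD1, CTGF and CYR61 are switched on. Several targets feed back on the pathway, among them LATS2, AMOTL2 and AJUBA.

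Total counts ran from 2321291 in PFA replicate 2 to 8557777 in native replicate 1. LMNB1, the gene of the construct, took 0.304% to 0.52% of the counts in the 4 fraction libraries. In the lamina libraries it took 8.6% and 2.96% (native replicates 1 and 2) and 8.89% and 9.49% (PFA). The lamina libraries were not alike in other respects: MALAT1, a nuclear RNA, stood at 5456 and 12246 normalised CPM (counts scaled to library size, with TMM factors) in the native libraries and at 595 and 3079 in the PFA libraries, against 10962 and 16522 in the nuclear and 795 and 974 in the cytosolic fraction. Of the HEK293 markers checked, VIM, NEFL, NEFM and LHX1 had counts in all 8 libraries, while PAX2 had 0 counts in cytosolic replicate 2. HBG1 and HBG2, markers of K562, another line of the study, had 0 counts in all 8. Of the markers of HCT116, the third line, CEACAM5 had 0 or 1 count in each library and CDH17 had 8 and 5 counts in the nuclear fraction and 0 to 3 elsewhere. VIL1 had 66 and 74 counts in the nuclear fraction, 0 and 2 in the cytosolic, 9 and 7 in native and 1 and 14 in PFA lamina, and its part in the results was not tested.

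The 250 bases before the start of 3 members were searched for the motif of the TEAD factors. ANKRD1 and CTGF are shown because both are standard YAP reporters. AJUBA is shown because its profile over the libraries, centred on its mean log2 CPM, was the nearest of the other 8 to that of ANKRD1. Sequences are RefSeq's for GRCh38.p14, on the strand of the gene, and capitals mark GGAATG, the core of the TEAD motif, or its reverse complement CATTCC. The stretches lie at chr10:90921088-90921337 (minus strand), chr6:131951373-131951622 (minus) and chr14:22982552-22982801 (minus).
ANKRD1: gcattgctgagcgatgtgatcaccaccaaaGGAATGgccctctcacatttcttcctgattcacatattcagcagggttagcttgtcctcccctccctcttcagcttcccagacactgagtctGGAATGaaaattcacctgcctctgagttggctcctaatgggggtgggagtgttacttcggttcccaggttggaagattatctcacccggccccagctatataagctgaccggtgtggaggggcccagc
CTGF: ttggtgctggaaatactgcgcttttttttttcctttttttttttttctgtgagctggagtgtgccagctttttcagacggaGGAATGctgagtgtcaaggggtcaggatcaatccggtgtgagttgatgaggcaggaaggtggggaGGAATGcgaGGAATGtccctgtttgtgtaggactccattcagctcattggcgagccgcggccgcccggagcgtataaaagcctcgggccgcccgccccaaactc
AJUBA: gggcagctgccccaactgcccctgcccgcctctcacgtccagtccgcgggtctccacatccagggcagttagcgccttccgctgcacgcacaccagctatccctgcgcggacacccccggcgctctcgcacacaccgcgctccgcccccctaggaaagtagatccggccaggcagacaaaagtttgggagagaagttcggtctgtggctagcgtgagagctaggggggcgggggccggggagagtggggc
The ANKRD1 promoter held GGAATG at positions -220 and -128 from the start, and CTGF held it at -169, -104 and -95. AJUBA held none. Of the other members with a RefSeq promoter, LATS2 had 1 match at position 9 and AMOTL1, AMOTL2 and AXL had none. CYR61 and TEAD1 were not among the 7 of 9 members matched. Among 35116 RefSeq promoters of the same 300 bases (250 before and 50 after the start), 14.0% held the 6-letter core on either strand. TGANTCA, a loose form of the AP-1 motif that allows any middle base, occurred at -195 in ANKRD1 and in 7.71% of all promoters. The ANKRD1 match has T in the middle, where the stricter AP-1 consensus takes only C or G. The TATA motif TATAAA occurred at -32 in CTGF and in 11.5% of promoters (both motifs searched on both strands). A match is a match of letters, and no match says only that these letters are not in this window.

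ANKRD1, a nuclear and sarcomeric ankyrin repeat protein best known from stressed heart muscle, lies at chr10:92671857-92681032 (hg19, minus strand). It stood at 4.51 and 5.67 normalised CPM in the nuclear fraction and at 3.61 and 8.46 in the cytosolic fraction. It stood at 43.7 and 18.3 in the native lamina libraries and at 47.7 and 33.5 in the PFA lamina libraries. All 4 lamina libraries were therefore above all 4 fraction libraries, and native replicate 2 was the lowest of the 4. The raw counts were 29, 33, 27 and 40 in the fractions and 420, 124, 258 and 91 at the lamina. As raw CPM, native replicate 2 had 20.7 (95% Wilson interval 17.4 to 24.7), against 6.89 (5.06 to 9.39) in cytosolic replicate 2, the highest of the fractions. These intervals cover at most counting error, because without molecular identifiers PCR copies of 1 molecule count as several reads. Side by side they are no test of ANKRD1, which was chosen on these same values.

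The fitted log2 differences of ANKRD1 were 2.61 (standard error, SE, 0.48) for native lamina minus nuclear fraction and 2.40 (SE 0.48) for native minus cytosolic. They were 3.0 (SE 0.49) for PFA minus nuclear and 2.80 (SE 0.49) for PFA minus cytosolic. These 4 contrasts chose the gene and share their control libraries. The native values rested on 1 library more than on the other: without native replicate 1 the difference from the nuclear fraction was 1.86 and from the cytosolic fraction 1.63, and without native replicate 2 the first was 3.11. Without cytosolic replicate 2 the differences from the cytosolic fraction were 3.09 (native) and 3.48 (PFA), and without cytosolic replicate 1 the PFA value was 2.26. ANKRD1 did not differ detectably between nuclear and cytosolic fraction (log2 difference -0.20, 95% interval -1.30 to 0.89, edgeR adjusted p = 0.76). Nor did PFA differ detectably from native lamina (0.39, -0.54 to 1.33, edgeR adjusted p = 0.769).

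Both ANKRD1 and LMNB1 were higher in every lamina library than in every fraction library. For ANKRD1 this split was by choice, so any gene high at the lamina would share it. LMNB1 stood at 3231, 3507, 4197 and 6382 normalised CPM in the fractions, at 76513 and 26168 in native replicates 1 and 2, and at 96237 and 81004 in PFA replicates 1 and 2. In both genes native replicate 2 was the lowest lamina library and cytosolic replicate 2 the highest fraction library. Within each group replicates 1 and 2 stood in the same order for both genes, while libraries of different groups changed order. Cytosolic replicate 1 was the lowest of all for ANKRD1 (3.61) but above both nuclear libraries for LMNB1. PFA replicate 2 was above native replicate 1 for LMNB1 but below it for ANKRD1 (33.5 and 43.7). Per 1000 LMNB1 counts, ANKRD1 had 0.86 to 1.62 counts in the fractions and 0.413 to 0.698 at the lamina. The part of the construct in the ANKRD1 values was not tested.

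**Figure D1:**
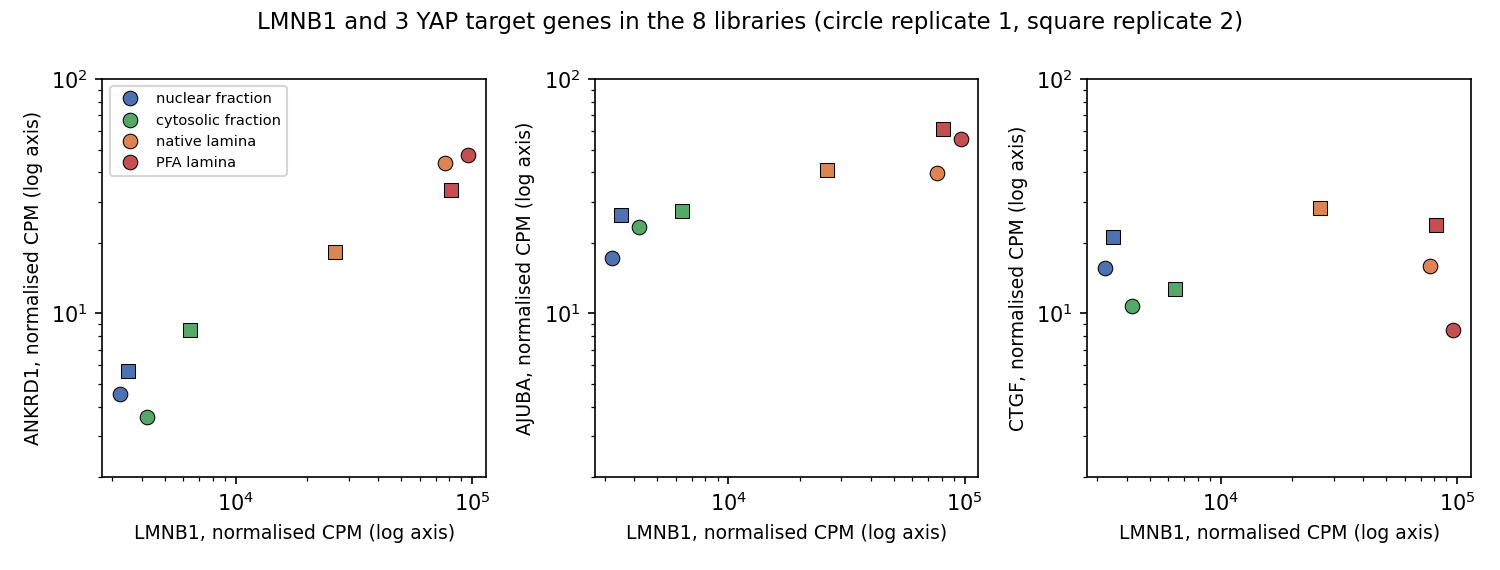
ANKRD1, AJUBA and CTGF (normalised CPM, log axis) against LMNB1 (normalised CPM, log axis) in each of the 8 libraries. ANKRD1 ran from 3.61 to 8.46 in the 4 fraction libraries at the left and from 18.3 to 47.7 in the 4 lamina libraries at the right, AJUBA followed with a smaller step, and the CTGF values of both sides overlapped.

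CTGF and CYR61, secreted matricellular proteins of the CCN family and standard readouts of YAP, had lamina values that overlapped those of the fractions. CTGF (chr6:132269317-132272518) stood at 15.6 and 21.3 CPM in the nuclear fraction, 10.8 and 12.7 in the cytosolic fraction, 16 and 28.1 in native and 8.5 and 23.9 in PFA lamina. The lowest of the 8 libraries was PFA replicate 1 and the highest was native replicate 2, so lamina and fraction values overlapped. Its log2 differences at the lamina were 0.26 (native, 95% interval -0.69 to 1.20, edgeR adjusted p = 0.738) and -0.23 (PFA, -1.22 to 0.76, edgeR adjusted p = 0.749) against the nuclear fraction. Against the cytosolic fraction CTGF was at 0.91 (native, -0.0627 to 1.88, edgeR adjusted p = 0.184) and 0.42 (PFA, -0.59 to 1.43, edgeR adjusted p = 0.633).

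CYR61 (chr1:86046444-86049648) stood at 61.9 and 102 CPM in the nuclear fraction and at 31.2 and 55.6 in the cytosolic fraction. It stood at 67.6 and 139 in native and at 46.2 and 78 in PFA lamina. Both cytosolic libraries were below both nuclear and both native libraries, and the PFA values overlapped those of the other groups. No CYR61 contrast passed the threshold. The nearest was native lamina minus cytosolic fraction, 1.26 on the log2 scale (SE 0.42, edgeR adjusted p = 0.0597), which was called under 10 of 16 other settings. Nuclear minus cytosolic was 0.92 (SE 0.41, edgeR adjusted p = 0.0814), called under 7 of 16.

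AXL, a receptor tyrosine kinase for the ligand GAS6, was the least abundant member in counts per length in all 4 groups. AXL (chr19:41725104-41767672) stood at 8.4 and 9.62 CPM in the nuclear and 4.41 and 4.02 in the cytosolic fraction, 6.34 and 8.84 in native and 6.84 and 10.3 in PFA lamina. Both cytosolic libraries were the lowest of the 8, on 33 and 19 counts. The nuclear minus cytosolic difference was 1.09 (SE 0.45, edgeR adjusted p = 0.0618, called under 5 of 16 other settings), and AXL was at -0.25 (native, 95% interval -1.18 to 0.68) and -0.0946 (PFA, -1.05 to 0.86) against the nuclear fraction, with edgeR adjusted p = 0.737 and 0.901.

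**Figure D2:**
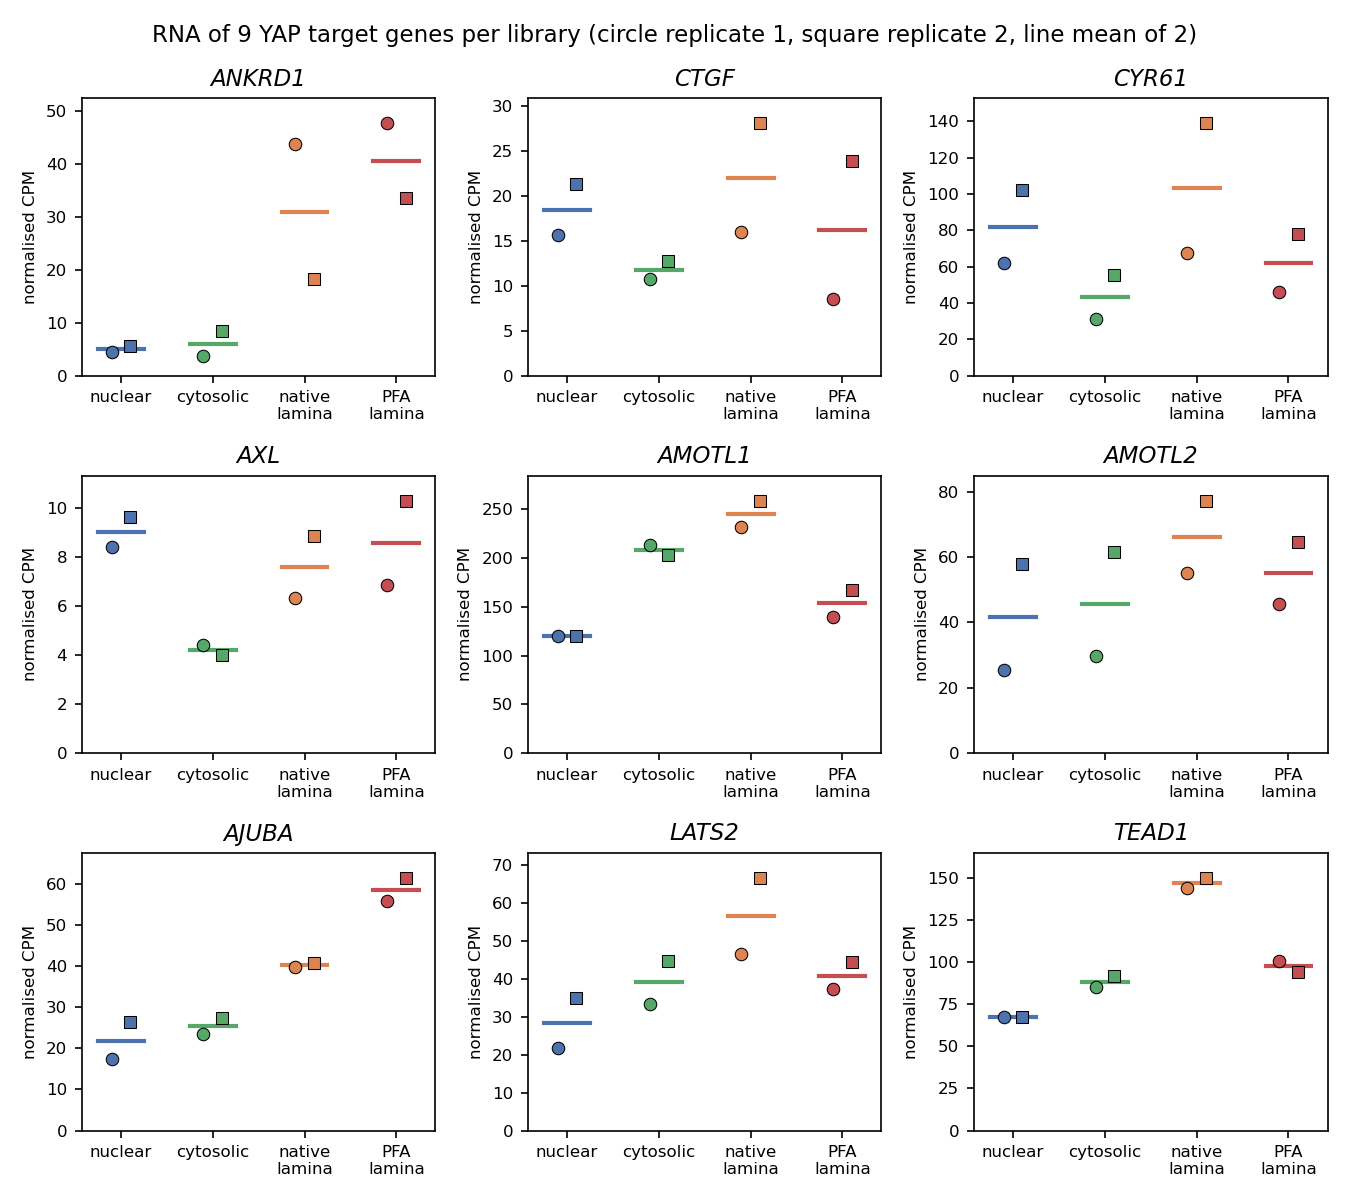
Normalised CPM (linear axis from 0) of the 9 genes in each library of the 4 groups, with circles for replicate 1, squares for replicate 2 and a line at the group mean. The lamina values of ANKRD1, AJUBA and TEAD1 all lie above their fraction values, while those of the other 6 genes overlap them.

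Among the members that regulate the pathway, AMOTL1, a scaffold of the angiomotin family that binds YAP at cell junctions, was the only member called between the fractions. AMOTL1 (chr11:94501508-94609918) stood at 120 and 120 CPM in the nuclear fraction and at 214 and 203 in the cytosolic fraction, and it fell by 0.80 on the log2 scale from cytosolic to nuclear (SE 0.27, edgeR adjusted p = 0.0268). At the lamina it stood at 232 and 259 in native and 140 and 167 in PFA libraries. It rose from the nuclear fraction to native lamina by 1.03 (SE 0.27, edgeR adjusted p = 0.0393). Native values were close to cytosolic ones (0.23, 95% interval -0.34 to 0.81, edgeR adjusted p = 0.571) and PFA values lay between the fractions. The first call was lost without any 1 of the 4 fraction libraries (-0.85 to -0.78, edgeR adjusted p up to 0.124). The second call was lost without any 1 of the fraction or native libraries (0.96 to 1.12, up to 0.239).

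AMOTL2, a related angiomotin and YAP target, showed no such step. AMOTL2 (chr3:134074187-134094259) stood at 25.4 and 57.7 CPM in the nuclear fraction, 29.8 and 61.5 in the cytosolic fraction, 55.1 and 77.2 in native and 45.6 and 64.7 in PFA lamina. The values of the 4 groups overlapped, and none of its 6 contrasts was called (the largest was 0.67 for native minus nuclear, 95% interval -0.22 to 1.56, edgeR adjusted p = 0.302).

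AJUBA, a LIM protein of junctions that binds LATS kinases and thereby restrains them, came closest to ANKRD1 of the members in its centred profile over the libraries. AJUBA (chr14:23440383-23451851) stood at 17.3 and 26.3 CPM in the nuclear and 23.4 and 27.3 in the cytosolic fraction, 39.9 and 40.8 in native and 55.8 and 61.4 in PFA lamina. All 4 lamina libraries were above all 4 fraction libraries, with PFA above native. It rose from the nuclear fraction to PFA lamina by 1.43 (SE 0.30, edgeR adjusted p = 0.0109). PFA minus cytosolic was 1.21 (SE 0.29) with edgeR adjusted p = 0.0678, called under 6 of 16 other settings, and native minus nuclear was 0.89 (SE 0.29, edgeR adjusted p = 0.0724), called under 5. The call against the nuclear fraction was lost without nuclear replicate 1, the lowest library (1.15, edgeR adjusted p = 0.139), and when the 4 libraries were fitted alone. The AJUBA libraries did not follow LMNB1 within the native pair, where LMNB1 was 76513 and 26168 CPM.

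LATS2, the kinase that phosphorylates YAP and is itself a YAP target, stood at 21.8 and 35 CPM in the nuclear and 33.4 and 44.8 in the cytosolic fraction. LATS2 (chr13:21547176-21635722) stood at 46.7 and 66.6 in native and 37.3 and 44.5 in PFA lamina. Both native libraries were above all 4 fraction libraries and both PFA libraries fell within the cytosolic range. Native minus nuclear was 0.99 (SE 0.32) and did not pass the threshold (edgeR adjusted p = 0.07, called under 6 of 16 other settings).

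TEAD1, one of the DNA-binding partners of YAP, rose from the nuclear fraction to native lamina. TEAD1 (chr11:12695969-12966284) stood at 67.5 and 67.3 CPM in the nuclear and 85.2 and 91.6 in the cytosolic fraction, 144 and 150 in native and 101 and 94.5 in PFA lamina. Replicates were close, and the groups followed each other without overlap in the order nuclear, cytosolic, PFA and native. Native minus nuclear was 1.13 (SE 0.26, edgeR adjusted p = 0.0265), while native minus cytosolic was 0.74 (SE 0.25, edgeR adjusted p = 0.0684, called under 5 of 16 other settings). PFA was at 0.54 against nuclear (95% interval -0.0156 to 1.09, edgeR adjusted p = 0.154). The call was lost without either nuclear or either native library (1.11 to 1.17, edgeR adjusted p up to 0.215).

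**Figure D3:**
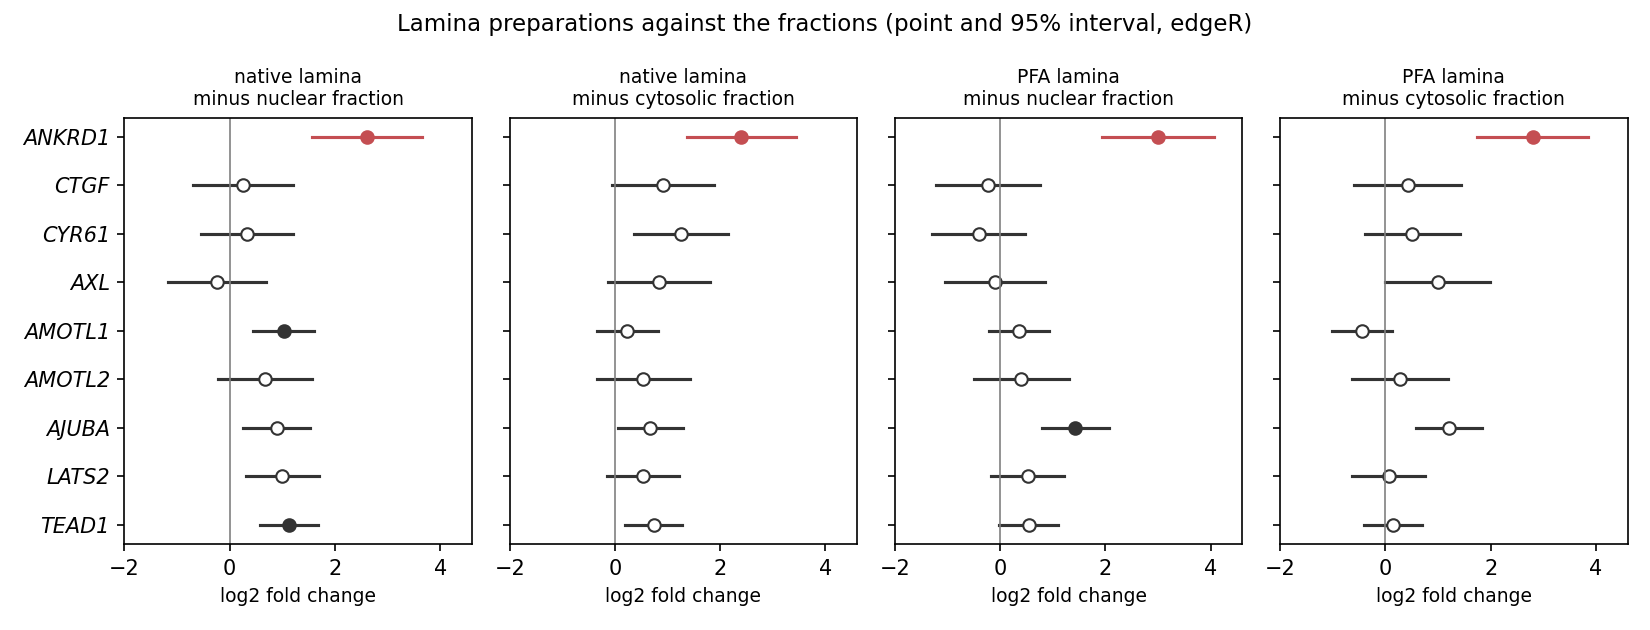
Fitted log2 differences of the 9 genes in the 4 lamina against fraction contrasts, with 95% intervals from the edgeR fit. For the 8 genes other than ANKRD1, points are filled for calls at an adjusted p under 0.05 and open otherwise. ANKRD1, in red, was chosen on the lamina against fraction contrasts and is shown there as a description. Its points are always filled, which marks no call. Its lamina differences of 2.40 to 3.0 exceed those of the other 8 genes, which lie between -0.44 and 1.43.

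Counted over the 8 members other than ANKRD1, each contrast had 0 to 2 calls, given here beside the share of all genes. For nuclear minus cytosolic fraction 1 of 8 was lower and 0 were higher (0 of 9 with ANKRD1), where 47.3% of all tested genes were called, 21.2% as lower and 26.1% as higher. For native lamina minus nuclear 2 of 8 were higher, AMOTL1 and TEAD1, where 3.87% of all genes and 4.92% of genes of at least 5000 exonic bases were called higher. The median log2 difference over the 8 was 0.78, against -0.0694 over all genes and 0.10 over those long genes, a length class chosen after values were seen. AMOTL1, AMOTL2, AJUBA, LATS2 and TEAD1 all have over 5000 exonic bases. For native minus cytosolic 0 of 8 were called by edgeR, where 6.99% of all genes and 12.1% of the long genes were called higher and 6.77% lower. There, 3 of 8 had an unadjusted p under 0.05 (CYR61, AJUBA and TEAD1; 31.7% of all genes), DESeq2 called 2, and the median was 0.71 against 0.10 over all genes and 0.37 over the long genes. For PFA minus nuclear 1 of 8, AJUBA, was higher, where 9.63% of all genes and 4.30% of the long genes were. For PFA minus cytosolic 0 of 8 were called by edgeR and 1 by DESeq2, with 1 at an unadjusted p under 0.05 (AJUBA; 21.5% of all genes). There, 0.527% of all genes and 0.660% of the long genes were called higher.

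Between the PFA and native preparations no member was called by edgeR or DESeq2, and edgeR called 0% of all genes (1821 of 16504 had an unadjusted p under 0.05). AMOTL1 at -0.68 (95% interval -1.25 to -0.10) and TEAD1 at -0.59 (-1.14 to -0.0421) had an unadjusted p under 0.05, with edgeR adjusted p = 0.397 and 0.426. CYR61 was at -0.74 (-1.63 to 0.15), LATS2 at -0.47 (-1.16 to 0.22) and AJUBA at 0.54 (-0.082 to 1.15).

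By library values alone, AJUBA and TEAD1 of the 8 had all 4 lamina libraries above all 4 fraction libraries, as ANKRD1 had by choice, where 2.17% of all tested genes and 3.01% of the long genes did. AMOTL1, AJUBA, LATS2 and TEAD1 had both native libraries above all fractions, where 7.19% of all genes and 15.9% of genes of at least 5000 bases did. AJUBA and TEAD1 had both PFA libraries above all fractions, where 6.70% of all genes and 6.11% of the long genes did.

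Per kilobase of exon, which allows genes to be compared, the order of the levels changed between groups. In the nuclear fraction CYR61 was highest at 35.8 ± 12.4 normalised CPM per kb (SD, n = 2), followed by AMOTL1 at 13.3 ± 0.0557. AMOTL2 (7.93 ± 4.37), CTGF (7.87 ± 1.73) and TEAD1 (7.16 ± 0.0147) were within their spread of each other, and LATS2 (5.13 ± 1.69) was below TEAD1 in both libraries. AJUBA (4.19 ± 1.23) was within the spread of LATS2, and ANKRD1 (2.58 ± 0.414) and AXL (1.84 ± 0.176) came last. In the cytosolic fraction AMOTL1 (23.2 ± 0.804) and CYR61 (18.9 ± 7.54) led without differing beyond their spread, and ANKRD1 (3.06 ± 1.74) was again eighth of 9.

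In native lamina ANKRD1 reached 15.7 ± 9.09 per kb, the third place. It was below AMOTL1 (27.3 ± 2.12) in both libraries and within its spread of TEAD1 (15.6 ± 0.494) and AMOTL2 (12.6 ± 2.99). In PFA lamina it reached 20.6 ± 5.09, between CYR61 (27.1 ± 9.8) and AMOTL1 (17.1 ± 2.07). The 3 were within their spread (SD) of each other, although CYR61 was above AMOTL1 in both libraries. AJUBA was in the fourth place there (11.3 ± 0.766) and in the seventh or the eighth in the other groups.

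The genes most like ANKRD1 over the 8 libraries were sought by the root mean square (RMS) difference of their centred log2 CPM, a description with no test. Among 13354 genes the nearest were ARRDC3 (RMS 0.608), WWC3 (0.62), LOC648987 (0.702), KLF15 (0.711) and ZNF423 (0.713), and LMNB1 was the sixth at 0.726. AJUBA ranked 33 at 0.883 and TEAD1 632 at 1.14. The matricellular targets were farther, with CYR61 at rank 4997 (1.4) and CTGF at rank 6817 (1.46).

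Other genes of the pathway were read from a list of 39 Hippo genes, all of which were tested. Between the fractions 5 were higher and 11 lower in the nucleus, with a median log2 difference of -0.44 against 0.13 over all genes. Of all tested genes 26.1% were higher and 21.2% lower there. Of the 12 kinases and upstream regulators 4 were lower, with NF2, the merlin scaffold, at -1.20 (edgeR adjusted p = 0.00546) and MOB1A, the LATS cofactor, at -1.09 (0.0107) as the largest. Of the 6 effectors and cofactors 3 were lower: YAP1 at -1.68 (SE 0.29, edgeR adjusted p = 0.00107), TEAD4 at -1.38 (0.00208) and WWTR1, the gene of TAZ, at -0.94 (0.0164). Of the 16 other targets 5 were higher and 3 lower, with FOXF2, a forkhead factor, at -2.18 (0.000681), while NT5E, the ectonucleotidase CD73, had 61 and 37 counts in the nuclear and 7 and 0 in the cytosolic fraction. The calls of YAP1, TEAD4, FOXF2 and NT5E held without any 1 library. That of NF2 was lost without cytosolic replicate 1 (adjusted p = 0.064 in edgeR). That of MOB1A was lost without nuclear replicate 1 or cytosolic replicate 2 (up to 0.0836), and that of WWTR1 without either nuclear library or cytosolic replicate 2 (up to 0.0977).

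Against the nuclear fraction 4 of 39 were higher in native lamina: YAP1 by 1.62 (SE 0.29, edgeR adjusted p = 0.0122), FOXF2 by 1.75 (0.0119), the angiomotin AMOT by 1.40 (0.0486) and the phosphatase PTPN14 by 1.17 (0.0294). Of all genes 3.87% were higher in that contrast. In PFA lamina 4 of 39 were higher, where 9.63% of all genes were: YAP1 at 1.18 (edgeR adjusted p = 0.0187), WWTR1 at 1.08 (0.0252), FOXF2 at 2.02 (0.00579) and FJX1 at 1.14 (0.0476). YAP1 stood at 45.3 and 36.3 CPM in the nuclear fraction and at 135 and 127 in the cytosolic fraction. It stood at 110 and 141 in native and at 105 and 79.8 in PFA lamina. Its native values were near the cytosolic ones, and both PFA values lay between those of the fractions. Native minus cytosolic was -0.0663 for YAP1 (95% interval -0.66 to 0.53, edgeR adjusted p = 0.894). FOXF2 was at -0.43 in that contrast (-1.05 to 0.19, edgeR adjusted p = 0.325). All 4 lamina libraries were above all 4 fraction libraries in 0 of the 39 pathway genes, where 2.17% of all genes showed this. Both native libraries were above all fractions in 8 of 39: STK3, STK4, TAOK1, TAOK3, AMOT, LIMD1, ASAP1 and PTPN14. Of all genes 7.19% showed this, and 15.9% of genes of at least 5000 exonic bases. Both PFA libraries were above all fractions in 2 of 39, F3 and FJX1, where 6.70% of all genes and 6.11% of the long genes were. The list is not the whole pathway, and WWC3, a relative of WWC1 in the list, was not among the 39. Its 4 lamina libraries, at 7.37 to 17.3 CPM, were above its 4 fraction libraries, at 1.87 to 6.56. WWC3 was found by its likeness to ANKRD1, so this pattern was by choice.

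Against the cytosolic fraction native lamina had TEAD4 lower at -0.93 (edgeR adjusted p = 0.0381) and CCDC80, ARHGEF17 and CRIM1 higher at 1.49 (0.0375), 1.27 (0.0384) and 1.16 (0.0158), where CRIM1 was named after its value was seen. Of all genes 6.99% were higher and 6.77% lower in that contrast. In PFA lamina minus cytosolic 0 of 39 were called by edgeR or DESeq2, with 7 at an unadjusted p under 0.05. In PFA minus native 0 were called by edgeR and 1 by DESeq2, with 6 at an unadjusted p under 0.05. With 1 library left out, the number of pathway genes called for native minus nuclear ran from 0 to 12 and for PFA minus nuclear from 0 to 9. None of the lamina calls in these genes held without each library in turn: FOXF2 was lost without nuclear replicate 1 in both (edgeR adjusted p up to 0.181) and also without nuclear replicate 2 in native. YAP1 was lost without either nuclear library in both, and without native replicate 2 or PFA replicate 1 respectively (edgeR adjusted p up to 0.127). AMOT (up to 0.259), PTPN14 (0.218), WWTR1 (0.156), FJX1 (0.237), TEAD4 (0.205), CCDC80 (0.233), ARHGEF17 (0.194) and CRIM1 (0.117) were lost without 3 to 6 of the 8 libraries.

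**Figure D4:**
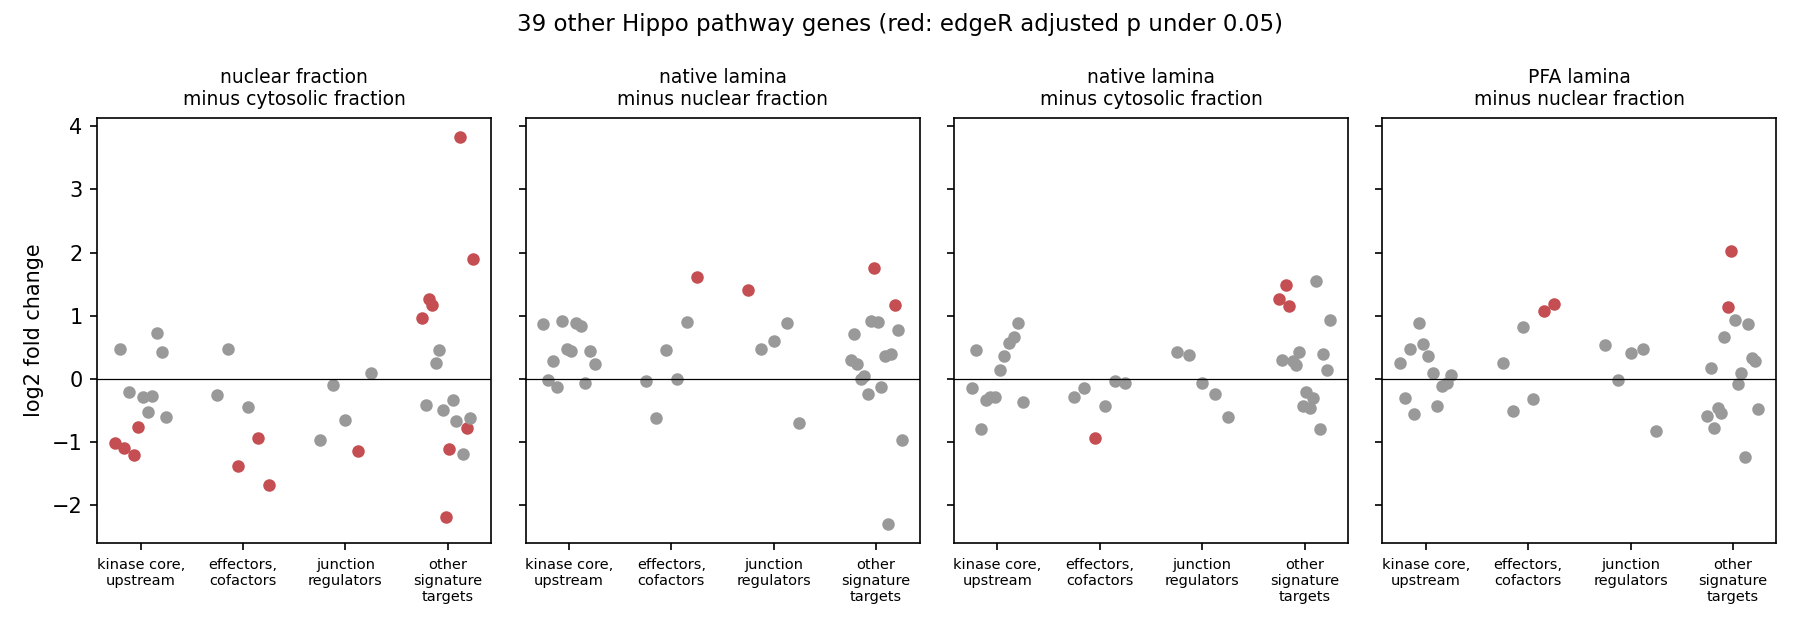
Fitted log2 differences of the 39 other Hippo genes, by role, in 4 contrasts (red for calls at an edgeR adjusted p under 0.05). Most red points lie in the nuclear minus cytosolic panel, with 5 higher and 11 lower, against 4 in each of the others.

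The gene positions were set against lamina-associated domains, stretches of chromatin that touch the lamina, mapped by APEX2 in HCT116, a colorectal carcinoma line. The domain lists are single consensus lists per cell cycle stage, with 378 (G1), 303 (S) and 388 (G2) domains, so no spread can be given. None of the 9 genes overlapped a domain in any stage (0 of 9 in G1, S and G2), where 7.94%, 6.81% and 9.51% of 27264 genes did. The nearest was AMOTL2, 306 kb from a domain in G1, 406 kb in G2 and 506 kb in S. ANKRD1 lay 5572 kb away in G1, 4572 kb in G2 and 6872 kb in S. RNA and domains came from different cell lines, and the domains of HEK293FT were not analysed here.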

How the data were processed

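The authors deposited counts of reads for each gene symbol, made with featureCounts (Subread 1.5.2) on hg19 and RefFlat, per the file headers. Strand was ignored and reads over several genes were counted for each, per the file headers. No member shares an exon base with another gene of that annotation. The submitters' processing notes list TopHat2 2.1.1 and Bowtie2 2.3.2 without a role. The header of cytosolic replicate 1 gives nuclear replicate 1 as its output name and cytosolic replicate 1 as its input, and it was kept as labelled. Exonic lengths came from the deposited tables. The deposited domain lists hold intervals without scores. Their names contain the letters HMM, and the program that called them is not given in the sources used here.

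Genes kept by filterByExpr (16504) entered edgeR 4.0.16 (R 4.3.3): TMM factors, quasi-likelihood test, 1 fit of 8 libraries with 1 coefficient per group, 6 contrasts. Benjamini-Hochberg adjustment ran over all tested genes in each contrast, with a call at an adjusted p under 0.05. SE is the log2 difference over the root of F. The fit was tested on simulated data. Alternatives were DESeq2 1.42.0, other scaling, filters, a replicate block, the 4 compared libraries alone and leaving out each library.

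Members and lists were chosen with earlier results of these data known. Named beside the 9 members and LMNB1 were, in each contrast and role, the called pathway genes or the 2 largest where more were called, and the 5 genes nearest to ANKRD1 among those with a mean count of at least 20 and at least 300 exonic bases (log2 CPM with a prior count of 2). WWTR1 between the fractions and CRIM1 were added after their values were seen. The K562 samples, whose labels contradict each other, were not used. Some single-gene results are not reported here.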

Additional observations from a re-analysis of the deposited data

How the results depend on the processing

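Depth limits ANKRD1 most in the fractions, where it rests on 27 to 40 counts a library. Scaling moved the median of all genes: native minus nuclear from -0.0694 (TMM) to 0.22 with total counts and -0.22 with upper-quartile factors, and nuclear minus cytosolic from 0.13 to 0.40 with upper-quartile factors. Member genes called for nuclear minus cytosolic (1) became 0 with total counts, 2 with upper-quartile factors, no filter or at least 10 counts in every library, and 3 with only the 4 libraries compared. The counts for lamina against fraction include ANKRD1, which was chosen on them, and are descriptions. Over the other 8 members the main fit called 2 for native minus nuclear and 1 for PFA minus nuclear. It called 0 of them for native minus cytosolic and 0 for PFA minus cytosolic. For native minus nuclear (3) the counts with ANKRD1 became 5 with total counts or only 4 libraries. For native minus cytosolic (1) they became 4 with total counts, 3 with upper-quartile factors, at least 10 counts or DESeq2, and 2 with no filter or only 4 libraries. For PFA minus nuclear (2) they became 1 with only 4 libraries, and for PFA minus cytosolic (1) they became 2 with DESeq2, at least 10 counts, no filter or upper-quartile factors. Pathway genes called for native minus nuclear (4) became 10 with total counts, 8 with no filter and 14 with only 4 libraries. They became 1 with only 4 libraries for PFA minus nuclear (4), 1 with no filter for PFA minus cytosolic (0) and 1 with no filter or DESeq2 for PFA minus native (0). The cause was not tested for any of these. Replicate numbers were not taken to pair libraries, since the labels do not say what they share and same-numbered deviations correlated at -0.0674 to 0.321 between groups. With the replicate block, member calls became 2 for nuclear minus cytosolic, 5 for native minus nuclear, 2 for native minus cytosolic and 2 for PFA minus cytosolic. Pathway calls became 9 for native minus nuclear and 7 for PFA minus nuclear. Leaving out 1 library gave 0 to 3 member calls for nuclear minus cytosolic, 0 to 5 for native minus nuclear, 0 to 3 for native minus cytosolic, 0 to 2 for PFA minus nuclear and 0 to 2 for PFA minus cytosolic. It gave 8 to 20 pathway calls for nuclear minus cytosolic (16), 0 to 12 for native minus nuclear, 0 to 5 for native minus cytosolic (4), 0 to 9 for PFA minus nuclear, 0 to 1 for PFA minus cytosolic and 0 to 2 for PFA minus native. Reversals touched only log2 differences that were not called. For nuclear minus cytosolic, ANKRD1 became 0.0673 with upper-quartile factors and 0.00633 with at least 10 counts, AMOTL2 0.13 and 0.0735, and AJUBA 0.0461 with upper-quartile factors. With total counts AXL became 0.0369 for native minus nuclear and 0.10 for PFA minus nuclear, and CTGF 0.0195 for PFA minus nuclear. With 1 library left out, the values that changed sign ran, for nuclear minus cytosolic, from -0.75 to 0.47 (ANKRD1), -0.86 to 0.46 (AMOTL2) and -0.57 to 0.0516 (AJUBA). For native minus nuclear they ran from -0.19 to 0.63 (CTGF) and -0.26 to 0.78 (CYR61). For PFA minus nuclear they ran from -1.10 to 0.39 (CTGF), -0.81 to 0.00106 (CYR61), -0.38 to 0.20 (AXL) and -0.077 to 1.12 (AMOTL2). For PFA minus cytosolic they ran from -0.46 to 0.98 (CTGF), -0.18 to 0.87 (AMOTL2) and -0.15 to 0.27 (LATS2). For PFA minus native they ran from -0.10 to 1.15 (ANKRD1), -0.14 to 0.43 (AXL) and -1.37 to 0.11 (CTGF).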

Other observations

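In 5 of the 9 genes, CTGF, CYR61, AMOTL2, AJUBA and LATS2, the library numbered 2 was above the library numbered 1 in all 4 groups. This was so for 10.7% of the 16504 genes tested. CYR61, for example, stood at 61.9 and 102 normalised CPM in nuclear replicates 1 and 2, at 31.2 and 55.6 in the cytosolic, 67.6 and 139 in the native and 46.2 and 78 in the PFA libraries. ANKRD1 was higher under number 2 in both fractions and lower under number 2 in both lamina preparations. AMOTL1 and TEAD1 were higher under number 2 in 2 of 4 groups and AXL in 3 of 4. The labels do not say what libraries of 1 number share, and the pattern was noticed after the values were seen.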
